A study of Mus musculus with 9 samples.

Results

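Rgs6 encodes a regulator of G-protein signalling of the R7 subfamily, and its transcript was read here together with those of the proteins it works with. The 7 genes were found by symbol in the deposited count table: the R7 genes Rgs6, Rgs7, Rgs9 and Rgs11, the partner subunit Gnb5, and the membrane anchors Rgs7bp and Gpr158. They are 7 of 56748 genes in the table, and all 7 are among the 17575 genes that passed a filter on low counts. Rgs6 was chosen by its measured fall from 5xFAD to 5xFAD/Cd5l tg/wt brain; its values are therefore described without a test. The other 6 genes were taken for their place in the complex.

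The study measured RNA by bulk sequencing in brain from which the cerebellum had been taken off, in mice 7 months old, with 3 libraries per genotype and 1 mouse per library. Wild-type mice carried neither transgene. 5xFAD mice carry mutant human transgenes driven by the neuronal Thy1 promoter and are a model of amyloid deposition. 5xFAD/Cd5l tg/wt mice carried in addition a transgene for mouse Cd5l that the human PDGF-B promoter drives. Sex and strain background are not given in the labels, and no group analysed here carried the Cd5l transgene without 5xFAD, so that Cd5l was compared only on the 5xFAD background. A difference between these groups in whole-brain RNA may lie in any cell type. The transgene was read as labelled: Cd5l counts were 2553, 2822 and 3551 with the transgene, 0 in each 5xFAD library, and 0, 1 and 0 in wild-type.

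In textbook terms, R7 proteins speed the GTP hydrolysis of Gi/o alpha subunits and so shorten the response to receptors such as those for dopamine, GABA, opioids and muscarinic agonists. Each R7 protein is stable only when bound to the atypical beta subunit Gnb5, and the anchor Rgs7bp or the orphan receptor Gpr158 brings the pair to the membrane. Rgs9 is best known in the striatum and Rgs7 is widespread in neurons. Rgs6 is known from heart pacemaker cells and from neurons of the brain, where it limits GIRK potassium channel currents, and Rgs11 from retinal bipolar cells.

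The libraries held 14575416 to 17865150 counts. Values below are CPM, read counts brought to a common library total after TMM scaling, fold changes are log2 values ± SE from edgeR's quasi-likelihood fit over all 9 libraries, and a gene passed where its p, adjusted by Benjamini-Hochberg over the 17575 genes, was under 0.05. The Cd5l comparison below sets 5xFAD/Cd5l tg/wt beside 5xFAD. The summed level of 5 neuronal markers was 5339 to 6076 CPM over the 9 libraries. 3 libraries stood apart in cerebellar granule cell or hypothalamic markers and are called the regionally distinct libraries below. Regional markers also differed beyond these 3, since 5xFAD/Cd5l tg/wt 1 had the lowest striatal sum, 724 CPM over 8 genes. Wild-type 3 had a summed level of 584 CPM over 6 cerebellar granule cell genes against 26.7 to 81.3 CPM elsewhere. 5xFAD/Cd5l tg/wt 2 and 3 had 4.99 and 8.41 CPM over 8 hypothalamic genes against 53.5 to 89.9 CPM elsewhere. Results that moved without these 3 libraries are given with and without them; their removal leaves 1 5xFAD/Cd5l tg/wt library, which the fit then assumes to vary like the other groups.

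To show what lies before the start of the genes on which the description turns, the 250 bases before the annotated start of Rgs6, of its closest relative Rgs7, and of Rgs9 are printed 5′ to 3′ from RefSeq on build GRCm38.p6, with CG dinucleotides in capitals. Rgs6 (chr12:82617249-82617498, plus strand) is the member that was low with the transgene. Rgs7 (chr1:175492546-175492795, minus strand) is the R7 member of the steadiest level. Rgs9 (chr11:109298182-109298431, minus strand) is the member set beside striatal markers below.
Rgs6: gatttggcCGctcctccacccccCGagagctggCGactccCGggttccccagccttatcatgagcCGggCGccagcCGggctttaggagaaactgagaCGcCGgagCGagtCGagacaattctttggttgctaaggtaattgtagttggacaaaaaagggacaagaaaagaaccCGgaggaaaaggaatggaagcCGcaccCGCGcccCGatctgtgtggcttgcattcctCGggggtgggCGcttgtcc
Rgs7: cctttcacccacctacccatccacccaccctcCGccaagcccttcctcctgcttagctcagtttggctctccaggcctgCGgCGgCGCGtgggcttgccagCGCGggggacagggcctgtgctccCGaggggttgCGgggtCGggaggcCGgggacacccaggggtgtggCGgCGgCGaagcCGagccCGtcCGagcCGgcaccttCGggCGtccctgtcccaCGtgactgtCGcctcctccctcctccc
Rgs9: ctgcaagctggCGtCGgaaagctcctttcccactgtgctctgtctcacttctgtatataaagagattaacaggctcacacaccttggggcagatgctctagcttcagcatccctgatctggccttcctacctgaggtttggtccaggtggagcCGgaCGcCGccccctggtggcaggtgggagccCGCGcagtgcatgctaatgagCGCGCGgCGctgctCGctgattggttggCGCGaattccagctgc
The Rgs6 window holds 18 CG dinucleotides, a number reached by 21.7% of the 32851 RefSeq windows of this length, whose median is 6. That of Rgs7 holds 22, reached by 14.8%, and that of Rgs9 holds 14, reached by 29.4%. The letters CACGTG, which read alike on both strands, occur in the Rgs7 window and in 6.02% of all windows. The letters TATAAA on either strand occur in the Rgs9 window and in 12.4% of all windows. Neither was found in the Rgs6 window. 6 of the 7 members had an entry, and Rgs11 had none. The windows were matched to the members by symbol, so that a RefSeq start may differ from the start of the counted gene model.

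The transcript of Rgs6 was lower in each 5xFAD/Cd5l tg/wt library than in any other library. Rgs6 (ENSMUSG00000021219) lies on the plus strand of chromosome 12 at 82635066 to 83208830 on build GRCm39. It had 60.9, 56.9 and 61.3 CPM in wild-type, 59.8, 64.2 and 54.9 CPM in 5xFAD, and 29.6, 29.9 and 29.8 CPM in 5xFAD/Cd5l tg/wt. The wild-type and 5xFAD libraries overlapped, while the 5xFAD/Cd5l tg/wt libraries formed a separate and narrow group. The underlying counts were 1048, 935 and 886 in wild-type, 904, 1144 and 820 in 5xFAD, and 444, 443 and 528 in 5xFAD/Cd5l tg/wt. In bulk tissue, fewer cells of a type and less RNA per cell cannot be told apart.

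As ratios, Rgs6 in 5xFAD/Cd5l tg/wt stood at 0.499 of its 5xFAD level (95% interval of the fit 0.443 to 0.562; log2 fold change -1.004 ± 0.08) and at 0.498 of its wild-type level (0.443 to 0.561). In 5xFAD against wild-type the ratio was 1.00 (0.891 to 1.12). These values chose the gene, or share libraries with those that did, and carry no test. The means ± SD over 3 libraries were 59.7 ± 2.46 CPM in wild-type, 59.6 ± 4.66 CPM in 5xFAD and 29.7 ± 0.161 CPM in 5xFAD/Cd5l tg/wt. The last spread, a coefficient of variation of 0.542%, was below the 4.60% that counting alone gives at a mean of 471.7 counts.

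The 3 regionally distinct libraries did not stand apart in Rgs6. Wild-type 3 had 61.3 CPM beside 60.9 and 56.9 CPM for wild-type 1 and 2, and 5xFAD/Cd5l tg/wt 2 and 3 had 29.9 and 29.8 CPM beside 29.6 CPM for 5xFAD/Cd5l tg/wt 1. Without those 3 libraries the log2 fold change of Rgs6 was -1.03 against 5xFAD and -0.999 against wild-type. Some regional markers did split the libraries as Rgs6 did. Chrna3, from the habenula list, had 0.270 to 0.999 CPM in 5xFAD/Cd5l tg/wt and 1.95 to 4.08 CPM elsewhere. Lct, from the hippocampus list, had 1.73 to 3.10 CPM in 5xFAD/Cd5l tg/wt and 3.49 to 7.28 CPM elsewhere. Tac1, from the striatal list, had 33.4 to 36.8 CPM in 5xFAD/Cd5l tg/wt and 40.1 to 66.1 CPM elsewhere. Hdc, from the hypothalamic list, and Fat2, from the cerebellar list, split alike at low levels. The sums of the habenula and hippocampus lists overlapped between the genotypes. Most listed regional markers did not split the libraries as Rgs6 did, and the part of regional make-up in the Rgs6 values was not tested. Other gene models inside the Rgs6 body of 573765 bases held few reads. There are 8 of them, none passed the filter, and the largest had 61 counts over all 9 libraries. Whether the counts cover all isoforms evenly was not analysed, since the table gives 1 value per gene.

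**Figure D1:**
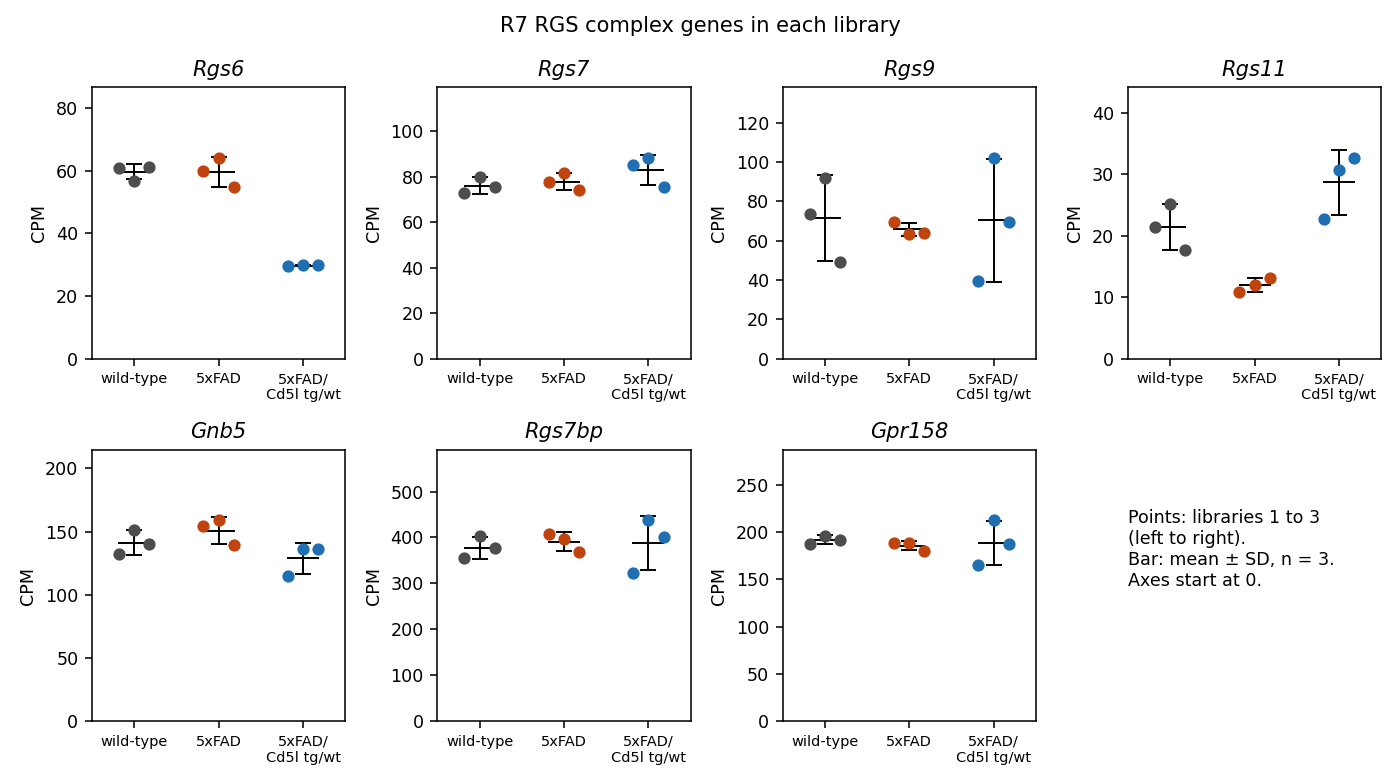
CPM (y axis, from 0, a separate scale per gene) of the 7 genes in each library, by genotype (x axis); points are libraries and bars the mean ± SD of 3 libraries. Rgs6 sits at 29.6 to 29.9 CPM in 5xFAD/Cd5l tg/wt and at 54.9 to 64.2 CPM in the other 6 libraries, and Rgs11 is lowest in 5xFAD.

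Among the 4 R7 genes, Rgs7 was the one of most even level across mice. Rgs7 (ENSMUSG00000026527, chromosome 1 at 174886653 to 175320066, minus strand) had 73.0, 80.1 and 75.5 CPM in wild-type, 77.8, 81.8 and 74.3 CPM in 5xFAD, and 85.1, 88.5 and 75.4 CPM in 5xFAD/Cd5l tg/wt. The 3 genotypes overlapped in every pairing. Its log2 fold change was 0.03 ± 0.08 in 5xFAD against wild-type (adjusted p = 0.888) and 0.12 ± 0.08 in 5xFAD/Cd5l tg/wt against wild-type (adjusted p = 0.587). The interval of the latter, -0.05 to 0.30, holds no change of the size seen for Rgs6. Against 5xFAD the value was 0.09 ± 0.08.

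Rgs11 was the R7 gene that passed the test in 5xFAD. Rgs11 (ENSMUSG00000024186, chromosome 17 at 26421925 to 26430298, plus strand) had 21.3, 25.1 and 17.6 CPM in wild-type, 10.9, 11.95 and 13.2 CPM in 5xFAD, and 22.7, 30.6 and 32.7 CPM in 5xFAD/Cd5l tg/wt. All 3 5xFAD libraries lay below the other 6, and the 5xFAD/Cd5l tg/wt libraries overlapped wild-type. Rgs11 fell in 5xFAD against wild-type by 0.83 ± 0.16 on the log2 scale (adjusted p = 0.0140, edgeR). The call was lost without wild-type 2 (adjusted p = 0.0636), without 5xFAD 1 (0.0840) or without 5xFAD 2 (0.0670), while the log2 fold change stayed between -0.95 and -0.69 under all 19 alternatives.

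With the transgene, the Rgs11 level was 2.39 times that of 5xFAD (1.88 to 3.04), given as a description. Against wild-type the log2 fold change was 0.42 ± 0.15 and did not pass (adjusted p = 0.264); it passed with no filter on low counts (0.0335) and without 5xFAD/Cd5l tg/wt 1 (0.0431), and was -0.04 without the 3 regionally distinct libraries. Another measure moved with Rgs11 in these libraries. The summed level of 7 RNAs known to stay in the nucleus, among them Malat1, Neat1 and Meg3, was 4160 to 5317 CPM in wild-type, 1923 to 2313 CPM in 5xFAD and 4437 to 6430 CPM in 5xFAD/Cd5l tg/wt. All 7 were lower on average in 5xFAD than in wild-type, and 6 of them passed, where 3.50% of all tested genes did. In the Cd5l comparison 7 of 7 rose and passed, beside 6.23% of all genes. As this list was drawn up with earlier results of these data known, the counts are a description. None of the 7 was at 0 in any library, and their part in the Rgs11 result was not tested.

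Rgs11 also overlaps Arhgdig, a gene on the opposite strand, and the strand setting of the counting is not given in the sources used here. Reads of the pair may therefore be exchanged. Arhgdig itself averaged 42.2 CPM in wild-type, 40.6 CPM in 5xFAD and 38.4 CPM with the transgene, and passed in no comparison.

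Rgs9 varied more between mice of the wild-type and the 5xFAD/Cd5l tg/wt group than between genotype means. Rgs9 (ENSMUSG00000020599, chromosome 11 at 109116181 to 109188955, minus strand) had 73.6, 92.1 and 49.0 CPM in wild-type, 69.7, 63.3 and 64.2 CPM in 5xFAD, and 39.6, 102.3 and 69.3 CPM in 5xFAD/Cd5l tg/wt. The lowest and the highest value of all 9 libraries both belonged to 5xFAD/Cd5l tg/wt. Its log2 fold changes had wide errors: -0.12 ± 0.27 in 5xFAD against wild-type (adjusted p = 0.877), -0.03 ± 0.27 in 5xFAD/Cd5l tg/wt against wild-type (adjusted p = 0.983), and 0.10 ± 0.27 against 5xFAD. Without the 3 regionally distinct libraries the second of these became -1.07 (adjusted p = 0.000827) and the last -0.75, where the fit called it too, both resting on the single 5xFAD/Cd5l tg/wt library 1 and its 39.6 CPM.

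That library was also lowest in striatal markers. The summed level of 8 genes of striatal projection neurons, among them the dopamine receptor genes Drd1 and Drd2, was 1184, 1468 and 903 CPM in wild-type, 1294, 1207 and 1116 CPM in 5xFAD, and 724, 1415 and 1108 CPM in 5xFAD/Cd5l tg/wt. Rgs9 was high where this sum was high. Over the 9 libraries Pearson's r on log2 values was 0.95 and Spearman's rank correlation 0.83. Pearson's r was 0.84 without wild-type 3 and 5xFAD/Cd5l tg/wt 1, the libraries farthest from the median sum. After the mean of each genotype was taken out, r was 0.99. Since the list was drawn up with earlier results known and set beside the R7 gene best known in the striatum, the relation is a description of these libraries and carries no test.

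**Figure D2:**
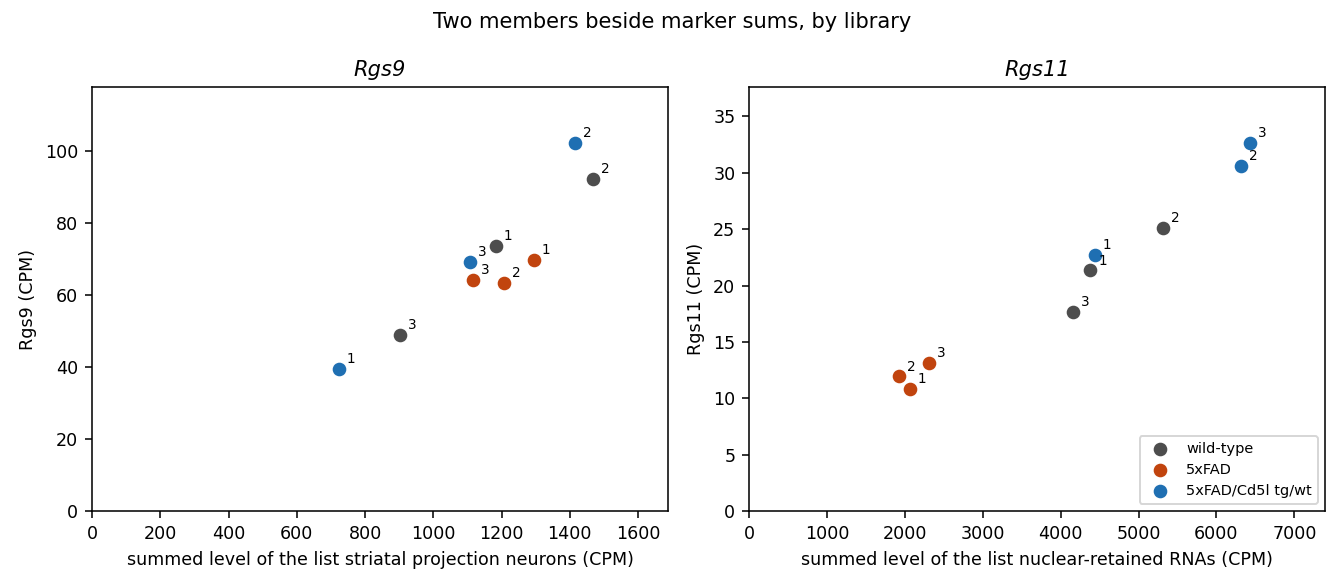
Left, Rgs9 (y axis, CPM) against the summed level of 8 striatal genes (x axis, CPM); right, Rgs11 against the summed level of 7 nuclear-retained RNAs; each point is 1 library, numbered by replicate. Rgs9 runs from 39.6 CPM at a striatal sum of 724 CPM to 102.3 CPM at 1415 CPM, and the 5xFAD libraries lie lowest on both axes of the right panel.

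Rgs6 did not share the pattern of Rgs9. The 5xFAD/Cd5l tg/wt libraries with 724, 1415 and 1108 CPM of striatal markers had 29.6, 29.9 and 29.8 CPM of Rgs6. Across the 9 libraries the correlation with Rgs6 on the log2 scale was 0.66 for Gnb5, -0.53 for Rgs7, -0.72 for Rgs11, and between 0.01 and 0.07 for Rgs9, Rgs7bp and Gpr158. These are descriptions over 3 genotypes, of which one sets Rgs6 apart.

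The partner Gnb5, without which R7 proteins are degraded, passed in neither tested comparison. Gnb5 (ENSMUSG00000032192, chromosome 9 at 75213570 to 75253158, plus strand) had 132.5, 151.6 and 139.9 CPM in wild-type, 154.3, 159.0 and 139.1 CPM in 5xFAD, and 114.9, 136.3 and 136.0 CPM in 5xFAD/Cd5l tg/wt. The 5xFAD/Cd5l tg/wt libraries all lay below the 5xFAD libraries and overlapped wild-type. Gnb5 gave 0.09 ± 0.09 in 5xFAD against wild-type (adjusted p = 0.671) and -0.13 ± 0.09 in 5xFAD/Cd5l tg/wt against wild-type (adjusted p = 0.596). Against 5xFAD the log2 fold change was -0.22 ± 0.09, and -0.41 without the 3 regionally distinct libraries, where the fit called Gnb5 lower; as the comparison chose Rgs6, nothing is read from that call.

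Neither anchor passed. Rgs7bp (ENSMUSG00000021719, chromosome 13 at 105082412 to 105191438, minus strand), which tethers R7 complexes to the membrane through a lipid tail, had 354.3, 402.2 and 377.4 CPM in wild-type, 407.7, 396.0 and 367.9 CPM in 5xFAD, and 322.7, 437.5 and 401.6 CPM in 5xFAD/Cd5l tg/wt. Gpr158 (ENSMUSG00000045967, chromosome 2 at 21372353 to 21835358, plus strand), an orphan receptor that binds Rgs7, had 187.2, 196.2 and 192.0 CPM in wild-type, 188.6, 188.2 and 180.3 CPM in 5xFAD, and 165.3, 212.4 and 187.5 CPM in 5xFAD/Cd5l tg/wt. For both, 5xFAD/Cd5l tg/wt 1 was the lowest and 5xFAD/Cd5l tg/wt 2 the highest library, and the genotypes overlapped. Those libraries had striatal marker sums of 724 and 1415 CPM. A relation to striatal markers may therefore not be particular to Rgs9, and it was not computed for the anchors. Rgs7bp gave 0.05 ± 0.10 in 5xFAD against wild-type (adjusted p = 0.869), 0.04 ± 0.10 in 5xFAD/Cd5l tg/wt against wild-type (adjusted p = 0.927) and -0.01 ± 0.10 against 5xFAD. Gpr158 gave -0.05 ± 0.08 (adjusted p = 0.842), -0.03 ± 0.08 (adjusted p = 0.937) and 0.02 ± 0.08 in the same order. Without the 3 regionally distinct libraries, Rgs7bp was -0.23 and Gpr158 -0.22 against wild-type, neither passing (adjusted p = 0.247 and 0.227).

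Counted over the complex, 1 of 7 members passed in 5xFAD against wild-type, Rgs11 downward, where 3.50% of all tested genes passed; the same 1 member had genotypes without overlap, as had 24.3% of all genes. In 5xFAD/Cd5l tg/wt against wild-type none of the 6 members other than Rgs6 passed by edgeR, where 1.58% of all genes did. At an unadjusted p under 0.05 there was 1 of these 6, Rgs11, and DESeq2 and limma-voom called none of them. None of the 6 had libraries that did not overlap, against 14.5% of all genes. In the Cd5l comparison, the comparison that chose Rgs6, the fit called 2 of 7, Rgs6 lower and Rgs11 higher, beside 6.23% of all genes, and the libraries did not overlap for 3 of 7 (these and Gnb5) beside 28.7% of all genes; nothing is read from these counts.

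**Figure D3:**
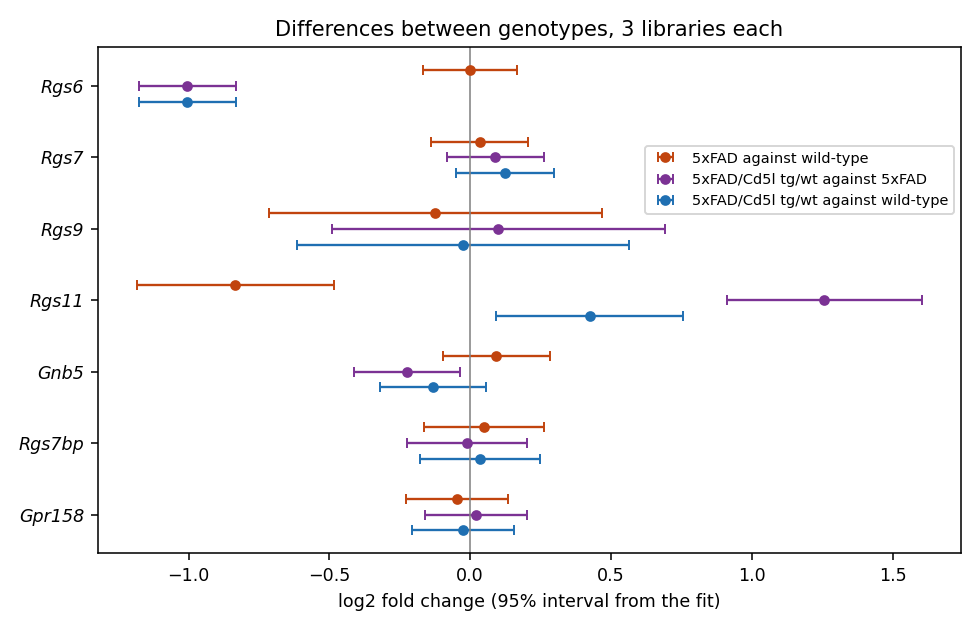
Log2 fold change (x axis) of each gene with the 95% interval of the fit, for 5xFAD and for 5xFAD/Cd5l tg/wt each set against wild-type, and for the Cd5l comparison, 3 libraries each. Both intervals that involve the transgene lie around -1.004 for Rgs6, Rgs9 has the widest intervals, and the 3 comparisons share libraries.

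Levels of different genes were compared as CPM per kilobase of the deposited gene model. That length is a single value per gene and may differ from the isoforms present in brain. The order between genes, and the shares given below, rest on it. In wild-type the order was Rgs7bp (53.4 ± 3.38), Gnb5 (45.4 ± 3.10), Gpr158 (23.5 ± 0.552), Rgs7 (12.7 ± 0.595), Rgs9 (11.2 ± 3.39), Rgs6 (5.95 ± 0.245) and Rgs11 (5.08 ± 0.889), each with its SD over 3 libraries. Rgs7 and Rgs9 overlapped between libraries, and so did Rgs6 and Rgs11, so that neither pair is ordered beyond its spread. In 5xFAD the last 2 places were separate, with Rgs6 at 5.95 ± 0.465 and Rgs11 at 2.85 ± 0.277 per kilobase. In 5xFAD/Cd5l tg/wt they were exchanged, with Rgs11 at 6.81 ± 1.25 and Rgs6 at 2.97 ± 0.0161, again without overlap.

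The make-up of the R7 transcripts differed accordingly, while the ranges of their sum overlapped. The 4 R7 genes summed to 34.9 ± 4.43 CPM per kilobase in wild-type, 32.0 ± 0.922 in 5xFAD and 34.6 ± 6.15 with the transgene. Rgs6 made up 17.5%, 14.4% and 20.03% of that sum in wild-type, 18.4%, 19.6% and 17.7% in 5xFAD, and 10.3%, 7.28% and 8.71% in 5xFAD/Cd5l tg/wt. The transgenic libraries were thus the lowest 3 of 9. This share is made from the Rgs6 values that chose the gene, so it is only described. Rgs11 had a mean share of 14.5% in wild-type, 8.92% in 5xFAD and 19.8% with the transgene. The ratio of Gnb5 to the R7 sum was 1.31, 1.51 and 1.21 on average in the same order. These ratios are of RNA per kilobase and say nothing of protein.

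**Figure D4:**
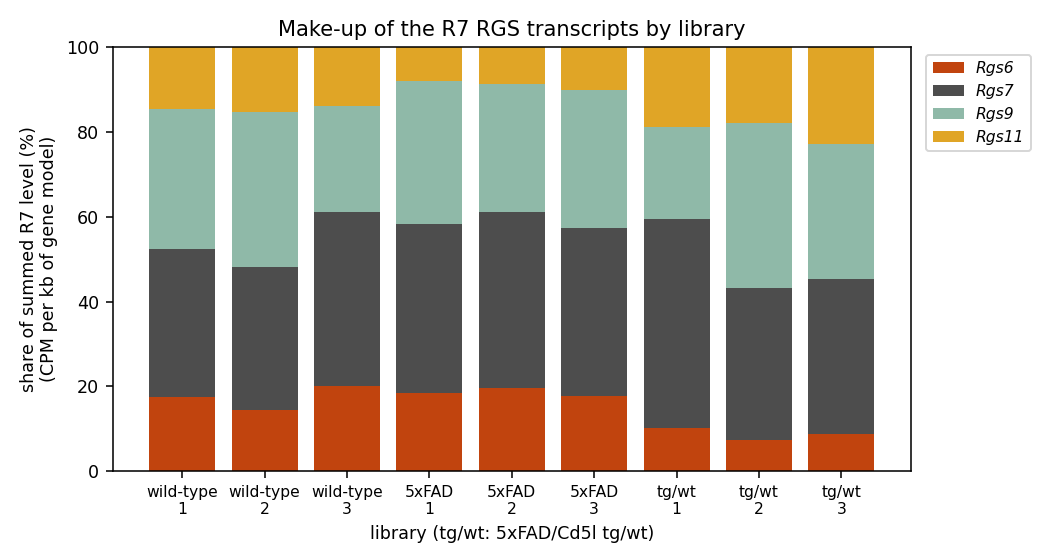
Share (y axis, %) of each of the 4 R7 genes in their summed CPM per kilobase, in each of the 9 libraries (x axis). The Rgs6 share is 7.28 to 10.3% in 5xFAD/Cd5l tg/wt and 14.4 to 20.03% in the other libraries.

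The neighbourhood of Rgs6 on chromosome 12 was then read for genes that moved with it. Within 1 Mb on either side the table holds 58 gene models, of which 25 were tested, 6 before the start and 19 after the end of Rgs6. In the Cd5l comparison 1 of the 25 passed, upward, by edgeR, where 6.23% of all tested genes did; their median log2 fold change was 0.03, beside 0.01 over all tested genes. That gene was Rbm25, a splicing factor gene 469.2 kb after the end of Rgs6, at 120.2 ± 4.94 CPM in wild-type, 85.3 ± 2.93 in 5xFAD and 135.1 ± 14.7 with the transgene. Rbm25 fell by 0.50 ± 0.08 on the log2 scale in 5xFAD against wild-type (adjusted p = 0.00670) and rose by 0.66 ± 0.08 with the transgene (adjusted p = 0.000894). In 5xFAD/Cd5l tg/wt against wild-type none of the 25 passed by edgeR, where 1.58% of all genes did, or by DESeq2 or limma-voom, and 3 had an unadjusted p under 0.05.

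The nearest tested gene before Rgs6, Sipa1l1, a synaptic GTPase activator gene 136.5 kb away, had a log2 fold change of -0.07 ± 0.08 in the Cd5l comparison. The nearest after it, Dpf3, a chromatin remodelling subunit gene 51.7 kb away, was low throughout. Dpf3 had 4.01, 3.65 and 10.7 CPM in wild-type, 3.90, 4.66 and 4.82 CPM in 5xFAD, and 2.93, 3.78 and 2.31 CPM in 5xFAD/Cd5l tg/wt. Its highest value was in wild-type 3, the library with cerebellar granule cell genes. The log2 fold change of Dpf3 was -0.58 ± 0.38 against 5xFAD (adjusted p = 0.395, edgeR) and -1.02 ± 0.37 against wild-type (adjusted p = 0.264, edgeR). Against wild-type it lay between -1.29 and -0.36 under the 19 alternatives. Only 1 of these passed, that with no filter on low counts (0.00114).

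**Figure D5:**
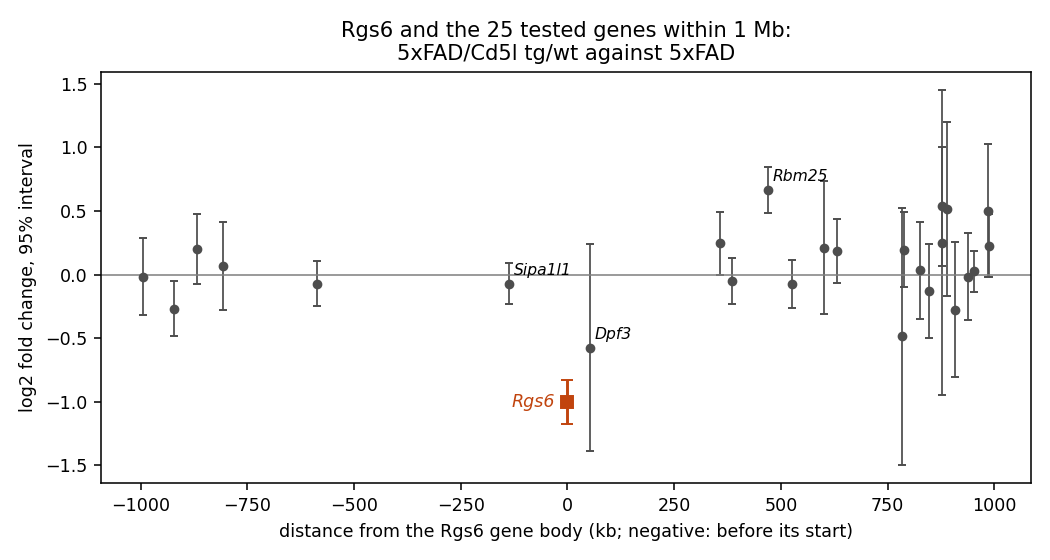
Log2 fold change with its 95% interval (y axis) in the Cd5l comparison for Rgs6 and the 25 tested genes within 1 Mb, by distance from the Rgs6 gene body in kb (x axis). Rgs6 lies at -1.004, the gene on its left, Sipa1l1, at -0.07, and Rbm25 at 0.66.

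The G-protein pathway around the complex was read from 9 lists of 109 genes, of which 96 were tested. 2 rose and 2 fell in 5xFAD against wild-type (4.17% of those tested, beside 3.50% of all genes), 1 rose and 2 fell in the Cd5l comparison (3.13% beside 6.23%), and 1 rose in 5xFAD/Cd5l tg/wt against wild-type (1.04% beside 1.58%). The substrates of R7 proteins were among those that did not pass: of the 5 tested Gi/o alpha subunit genes none did in any comparison by edgeR, DESeq2 or limma-voom, and 0 had an unadjusted p under 0.05. Gnao1, the main alpha subunit of brain, averaged 799.7 CPM in wild-type, 826.8 in 5xFAD and 859.6 with the transgene. None of the 7 other alpha subunits, 13 beta and gamma subunits and 9 adenylyl cyclases passed by edgeR either. At an unadjusted p under 0.05 there were 0 to 3, 1 to 6 and 1 to 2 of them per comparison, and DESeq2 called 0 in the first and last of these lists and up to 2 in the second. The medians of these 4 lists lay between -0.10 and 0.09 on the log2 scale in the 3 comparisons.

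Of the 13 other RGS genes tested, 1 rose and 1 fell by edgeR in 5xFAD against wild-type. Their median log2 fold change there was 0.15, beside -0.01 over all tested genes. An unadjusted edgeR p under 0.05 was found for 5, and DESeq2 and limma-voom called 2 each. The Cd5l comparison also gave 1 up and 1 down by edgeR, but the median was -0.27, beside 0.01 over all tested genes. There 6 had an unadjusted p under 0.05 in either direction, and DESeq2 called 4 and limma-voom 3. None passed by edgeR, DESeq2 or limma-voom when 5xFAD/Cd5l tg/wt was set against wild-type, where 3 had an unadjusted p under 0.05. Rgs5, a small RGS of pericytes and other mural cells, had 77.7, 84.6 and 87.8 CPM in wild-type, 57.0, 58.0 and 59.4 CPM in 5xFAD, and 93.7, 94.1 and 87.6 CPM in 5xFAD/Cd5l tg/wt. The 5xFAD libraries of Rgs5 lay below all others. It fell by 0.52 ± 0.07 in 5xFAD against wild-type (adjusted p = 0.00168) and rose by 0.66 ± 0.07 in the Cd5l comparison (adjusted p = 0.000378), passing under all 19 alternatives. The summed level of 5 endothelial markers moved alike, at 169.3 to 194.9 CPM in wild-type, 107.9 to 131.0 CPM in 5xFAD and 182.9 to 215.5 CPM in 5xFAD/Cd5l tg/wt, with none at 0 in any library; its part in the Rgs5 result was not tested.

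Rgs10, an RGS gene of microglia, had 20.9, 20.4 and 20.2 CPM in wild-type, 29.3, 25.5 and 30.0 CPM in 5xFAD, and 23.6, 21.6 and 23.4 CPM in 5xFAD/Cd5l tg/wt. It rose by 0.46 ± 0.09 in 5xFAD against wild-type (adjusted p = 0.0169), a call lost without wild-type 2 (0.0580), 5xFAD 1 (0.0957) or 5xFAD 3 (0.0711). Rgs16, an inducible RGS, fell by 0.60 ± 0.16 in the Cd5l comparison (adjusted p = 0.0452), with 21.2, 21.2 and 24.8 CPM in 5xFAD and 16.6, 11.8 and 15.7 CPM in 5xFAD/Cd5l tg/wt. The Rgs16 call was lost under 8 of 19 alternatives, without wild-type 1 (0.0579), any single 5xFAD library (0.117, 0.121 and 0.124) or 5xFAD/Cd5l tg/wt 2 or 3 (0.149 and 0.0950) among them.

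Of the 10 other modulators of Gi/o subunits, Gpsm3 passed. This GoLoco protein gene of immune cells had 0.756, 0.973 and 1.04 CPM in wild-type, 2.38, 2.24 and 3.15 CPM in 5xFAD, and 3.06, 1.89 and 2.14 CPM in 5xFAD/Cd5l tg/wt. Wild-type was below every other library. Gpsm3 rose by 1.49 ± 0.30 in 5xFAD against wild-type (adjusted p = 0.0175, edgeR). That call was lost without wild-type 1 or 2 (0.0677 and 0.0557) or 5xFAD 1 or 3 (0.0612 and 0.0677). Gpsm3 also rose by 1.36 ± 0.30 in 5xFAD/Cd5l tg/wt against wild-type (adjusted p = 0.0456, edgeR). The latter call was lost under 13 of 19 alternatives, among them limma-voom and every fit with 1 library left out (0.0521 to 0.158). The summed level of 5 microglial markers was higher beside Gpsm3 in both comparisons with wild-type, at 260.1 to 288.8 CPM in wild-type, 443.7 to 576.7 CPM in 5xFAD and 548.5 to 606.1 CPM in 5xFAD/Cd5l tg/wt, with 5 of 5 up in both and none at 0. It was higher beside Rgs10 in 5xFAD, but between 5xFAD and 5xFAD/Cd5l tg/wt the ranges of this sum overlapped while every Rgs10 value was lower with the transgene. The part of these markers in the Rgs10 and Gpsm3 results was not tested.

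The effector channels and the receptors gave 1 call each. Kcnj3, a GIRK channel subunit gene and 1 of 4 tested, fell by 0.28 ± 0.07 in 5xFAD against wild-type (adjusted p = 0.0457), from 147.6, 150.9 and 158.3 CPM to 126.5, 120.3 and 130.4 CPM. The groups did not overlap, but the call was lost under 12 of 19 alternatives, with adjusted p from 0.0817 to 0.134 without a wild-type library, from 0.0790 to 0.214 without a 5xFAD library, 0.0547 without 5xFAD/Cd5l tg/wt 3, 0.0518 with RLE scaling and 0.0684 with a replicate block. Htr1b, a serotonin receptor gene and 1 of 34 Gi/o-coupled receptors tested, fell by 0.61 ± 0.12 in the Cd5l comparison (adjusted p = 0.0111), from 26.3, 29.8 and 23.8 CPM to 17.2, 19.4 and 16.02 CPM. The Htr1b call was lost without 5xFAD 1 (0.0502), 5xFAD 2 (0.0769) or 5xFAD/Cd5l tg/wt 3 (0.0563).

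Genes whose pattern over the 9 libraries was most like that of Rgs6 were ranked by Pearson's r on log2 CPM among 15899 genes with a mean of at least 1 CPM. The 10 highest were Dennd2a, Clmp, Mrpl34, Rtl8a, Atp5g3, Tmed4, Ypel3, Fez1, Fbxo22 and Sap30l, with r from 0.97 to 0.94, and 40 genes exceeded 0.9. Each of the 10 was lower in the 3 transgenic libraries than in the other 6, which follows from picking them by likeness to Rgs6 over the same libraries. Over all tested genes, libraries did not overlap for 28.7% in the Cd5l comparison and 14.5% in 5xFAD/Cd5l tg/wt against wild-type. The steps of the 10 genes were smaller than that of Rgs6. Dennd2a, a Rab regulator gene, had 28.8 to 32.0 CPM in the other 6 libraries and 23.3 to 24.6 CPM in 5xFAD/Cd5l tg/wt, and Atp5g3, a subunit gene of the mitochondrial ATP synthase, had 225.6 to 236.1 CPM and 197.8 to 211.2 CPM.

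The 5 lowest were Cd5l, Il1a, Arhgap17, Thada and Srgn, with r from -0.99 to -0.96. Cd5l marks the transgene itself. Il1a, a cytokine gene, had 0.639 to 1.00 CPM in the other 6 libraries and 2.16 to 2.31 CPM in 5xFAD/Cd5l tg/wt. The 9 points share 3 genotypes, and the ranks are given without a test.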

How the data were processed

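Total RNA of 9 brains was sequenced on an Illumina platform, per the labels' protocols. The authors deposited 1 table of unnormalised read counts per gene with symbols, coordinates and gene model lengths, per the file headers; the build is GRCm39 per the submitters' processing notes. Not given in the sources used here are the aligner, the counter, its strand setting and its treatment of multi-mapped reads. No column belonged to other samples (0).

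Genes were kept by filterByExpr (minimum count 10, minimum total 15), which took out up to 0.161% of the counts of a library. The 9 libraries (3 per genotype) were scaled by TMM (factors 0.987 to 1.018) and fitted together with 1 coefficient per genotype (edgeR 4.0.16, limma 3.58.1, R 4.3.3); the procedure was tested on simulated data. P-values were adjusted by Benjamini-Hochberg over all 17575 genes at a threshold of 0.05. An SE is the absolute log2 fold change divided by the square root of F. Likeness used log2 CPM with a prior count of 2.

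The members, lists, tests and alternatives were chosen with earlier results of these data known. Named genes were the 7 members, Cd5l, in each list and comparison up to 4 genes that passed with the smallest p, tested genes within 1 Mb of Rgs6, the 10 most and 5 least like Rgs6, and markers where needed. Gpr179 and Arhgdig were chosen as relatives or overlapping genes. The 19 alternatives covered scaling, filter, DESeq2 1.42.0, limma-voom, libraries in the fit, a replicate block, gene length and left-out libraries. Promoter windows came from RefSeq on GRCm38.p6. Figures were drawn with matplotlib 3.10.9. P-values measure the spread between mice of a genotype as far as the titles tell, which number the mice.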

Additional observations from a re-analysis of the deposited data

How the results depend on the processing

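The 7 members were refitted under 19 alternatives in each comparison, 399 values in all, of which 361 kept their direction and their side of the threshold; 31 changed sign and 8 changed side, 1 of them both. Rgs6 stayed between -1.08 and -0.95 in the Cd5l comparison, and -1.04 to -0.99 where 5xFAD/Cd5l tg/wt met wild-type. In 5xFAD against wild-type its value lies at 0 and changed sign: 0.00808 with RLE scaling, 0.0138 with upper-quartile scaling, 0.00474 with no filter, 0.0134 with a filter of 1 CPM in 3 libraries, 0.00856 with DESeq2, 0.00492 with only the 6 libraries compared, 0.0539 with gene length offsets, 0.0310 without the 3 regionally distinct libraries, and -0.0560 to 0.0568 when 1 library was left out. Without those 3 libraries Rgs11 was -0.0378 and Rgs7bp -0.23 in 5xFAD/Cd5l tg/wt against wild-type. Leaving out 1 library, Rgs7 in 5xFAD against wild-type ranged from -0.00148 to 0.0857 (below 0 without 5xFAD 2), Rgs9 from -0.33 to 0.11 (above 0 without wild-type 2). When 5xFAD/Cd5l tg/wt was set beside wild-type, Rgs9 ranged from -0.39 to 0.25 (above 0 without wild-type 2 or 5xFAD/Cd5l tg/wt 1), Rgs7bp from -0.0614 to 0.15 (below 0 without wild-type 1 or 5xFAD/Cd5l tg/wt 2) and Gpr158 from -0.12 to 0.0575 (above 0 without 5xFAD/Cd5l tg/wt 1). Members called in 5xFAD against wild-type, the Cd5l comparison and that of wild-type with 5xFAD/Cd5l tg/wt (Rgs6 not counted in the last) were 1, 2 and 0; without the 3 libraries the last 2 counts were 4 (Rgs6, Rgs11, Rgs9 and Gnb5) and 1 (Rgs9), with no filter the last was 1, and with 1 library left out the counts were 0 to 1, 2 to 2 and 0 to 1. Pathway genes called were 4, 3 and 1 in that order. They were 12, 17 and 11 with no filter, where more genes were tested, 7, 12 and 8 without the 3 libraries, 7 and 5 in the last 2 comparisons with DESeq2, 6 and 0 with only the 6 libraries compared, and 0 in the last with limma-voom. With 1 library left out they were 1 to 5, 1 to 13 (13 without 5xFAD/Cd5l tg/wt 1, 6 without wild-type 3) and 0 to 3. Over all genes, calls were 615, 1095 and 277, against 1354, 2063 and 1062 with no filter, 1154, 630 and 360 without the 3 libraries, 472 in the last with DESeq2, 176 in the last with only the 6 libraries compared, and 206 to 850, 278 to 2069 and 158 to 686 with 1 library left out. The labels do not say whether the replicate numbers pair the mice. Deviations of libraries with the same number correlated between -0.10 and 0.15, and those with different numbers between -0.16 and 0.15. These ranges cannot decide whether mice were paired. With the replicate block Rgs6 was -1.003 in the Cd5l comparison, no member's call changed, and pathway genes called in 5xFAD/Cd5l tg/wt against wild-type went from 1 to 0. The causes of these shifts were not tested.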

Other observations

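Gpr179, the relative of Gpr158 that holds R7 proteins in retinal bipolar cells, was measured at the low end of the table, with 1.69, 1.52 and 1.80 CPM in wild-type, 2.58, 2.64 and 2.81 CPM in 5xFAD, and 1.80, 0.472 and 1.86 CPM in 5xFAD/Cd5l tg/wt. The 5xFAD libraries were the highest 3 of 9, but no comparison passed (adjusted p = 0.160 in the Cd5l comparison, edgeR). Gm19531, an opposite-strand model overlapping Gnb5, averaged 4.52 CPM in wild-type, 5.18 CPM in 5xFAD and 3.42 CPM with the transgene.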
